A study of Mus musculus with 4 samples.

Results

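The 9 genes described here encode the receptor complex of developing and mature B cells and proteins that act next to it. They were taken by name: Igll1, Vpreb1 and Vpreb3 of the pre-B stage, Cd79a, Cd79b and Blnk, which serve both pre-B and mature B cells, and Ms4a1, Cd22 and Pou2af1 of mature B cells. Every probe set whose annotation gave one of these symbols alone was used, which made 12 probe sets for the 9 genes, of 18194 genes named on the array. Where a gene had several, the brightest on average is the one meant unless another is given. Expression was measured in bone marrow LSK cells (Lin-Sca-1+c-Kit+), the fraction that holds haematopoietic stem cells and early progenitors and from which cells with surface lineage markers are meant to be removed. The 2 necdin null arrays held LSK cells of C57BL/6 mice whose marrow had been rebuilt from necdin null fetal liver cells, and the 2 wild type arrays those of mice rebuilt from wild type fetal liver cells. Mice of both groups had been sublethally irradiated with 6.5 Gy. The age of the mice, the time since irradiation, the share of remaining host cells and whether an array holds a single animal or a pool are not given in the sources used here.

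B cell development begins when a progenitor starts to rearrange the immunoglobulin heavy chain gene under the transcription factors E2A, EBF1 and PAX5. The new heavy chain is first tested at the cell surface as a pre-B cell receptor, in which the products of Igll1 and Vpreb1 stand in for the light chain that is not yet made. Signals from this receptor and from the later B cell receptor pass through CD79A and CD79B to the kinase SYK and the adaptor BLNK. In bone marrow these genes are used mainly by committed B cells, and most of them little by stem cells and multipotent progenitors.

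The promoters of the 9 genes were searched for a pair of motifs tied to B lineage factors, the EBF1 core CCCNNGGG and the octamer ATGCAAAT, which is read by the POU factors that the Pou2af1 product assists. RefSeq windows of 300 bases, from 250 before to 50 after the start (build GRCm38.p6), were at hand for 7 of the 9 genes; those of Cd79b and Ms4a1 were not used here. Both strands were searched. The octamer stood in 2 of these windows, against 1.75% of 32544 windows of all genes, and the EBF1 core in 2, against 13.7%. The windows with a match are shown because they hold the only matches found among the members, with the matched letters in capitals. Blnk (chr19:40994172-40994471 on the minus strand) and Vpreb3 (chr10:75948050-75948349 on the plus strand) hold the octamer in reverse, beginning at position -130 in Blnk and -45 in Vpreb3 relative to the start. Cd22 (chr7:30878979-30879278 on the minus strand) and Igll1 (chr16:16863936-16864235 on the minus strand) hold the EBF1 core, beginning at position -48 in Cd22 and -231 in Igll1. The windows read 5′ to 3′ along the gene.
Blnk: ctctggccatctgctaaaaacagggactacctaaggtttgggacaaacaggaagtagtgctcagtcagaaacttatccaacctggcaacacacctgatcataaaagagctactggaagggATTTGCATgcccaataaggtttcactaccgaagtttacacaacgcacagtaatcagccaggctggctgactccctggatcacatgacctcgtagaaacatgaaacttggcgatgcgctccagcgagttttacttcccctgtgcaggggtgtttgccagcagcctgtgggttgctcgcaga
Vpreb3: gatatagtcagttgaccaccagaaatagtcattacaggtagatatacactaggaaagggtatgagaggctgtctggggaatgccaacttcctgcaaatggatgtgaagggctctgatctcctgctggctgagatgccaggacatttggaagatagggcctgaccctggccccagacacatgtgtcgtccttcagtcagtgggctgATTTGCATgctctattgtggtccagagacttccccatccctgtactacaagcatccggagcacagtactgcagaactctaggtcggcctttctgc
Cd22: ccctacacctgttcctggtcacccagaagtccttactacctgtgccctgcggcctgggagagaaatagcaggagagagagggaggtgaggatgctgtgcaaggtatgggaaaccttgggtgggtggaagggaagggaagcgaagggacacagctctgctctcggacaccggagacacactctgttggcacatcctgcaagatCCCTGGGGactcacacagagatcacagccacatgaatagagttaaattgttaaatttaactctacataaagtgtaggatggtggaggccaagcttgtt
Igll1: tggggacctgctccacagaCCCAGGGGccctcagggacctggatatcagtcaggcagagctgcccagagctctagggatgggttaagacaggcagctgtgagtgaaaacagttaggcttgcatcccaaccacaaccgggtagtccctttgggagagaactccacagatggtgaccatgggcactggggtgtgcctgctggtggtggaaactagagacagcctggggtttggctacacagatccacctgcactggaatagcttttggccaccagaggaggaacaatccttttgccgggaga
A match is a description of letters, and its absence from the windows of Cd79a, Vpreb1 and Pou2af1 says nothing about the factors.

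The 4 arrays had median signals between 53.7 and 63.2. Ndn, the targeted gene, had 105 and 55.4 on the necdin null arrays against 255 and 253 on the wild type arrays. Kit, which defines the sorted fraction, had 3744 and 6049 in necdin null cells and 3976 and 6617 in wild type cells, and Cd34 stood at 13407 or more on all 4 arrays; Ly6a, which encodes Sca-1, was not analysed here. Within each pair the first value is that of replicate 2. Arrays of a group differed in Xist, transcribed from the inactive X chromosome, at 76.8 on necdin null replicate 2 and 4841 on necdin null replicate 1, against 7182 on wild type replicate 2 and 9930 on wild type replicate 1. Eif2s3y, a gene of the Y chromosome, had 2987 and 2273 in necdin null cells against 1974 and 32.6 in wild type cells. Arrays of a group are therefore not repeats of a single RNA. Xist and Eif2s3y were both bright on necdin null replicate 1 and on wild type replicate 2, and the source of this was not tested. The labels do not say whether each array came from a separate animal. The p-values therefore measure only the spread between these arrays, and the number of arrays limits the precision.

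The B lineage genes did not separate the genotypes. They separated the arrays within each group: those of mature B cells and Blnk were brighter on replicate 2 than on replicate 1, most of all in wild type cells, where Ms4a1 differed 6.20-fold and Blnk 5.65-fold. The pre-B genes were mixed: Vpreb3 was brighter on replicate 2 in both groups, the 2 Igll1 probe sets disagreed, and Vpreb1 stayed between 158 and 242 on the 4 arrays. The plot of the signals of each gene by array shows both.

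**Figure D1:**
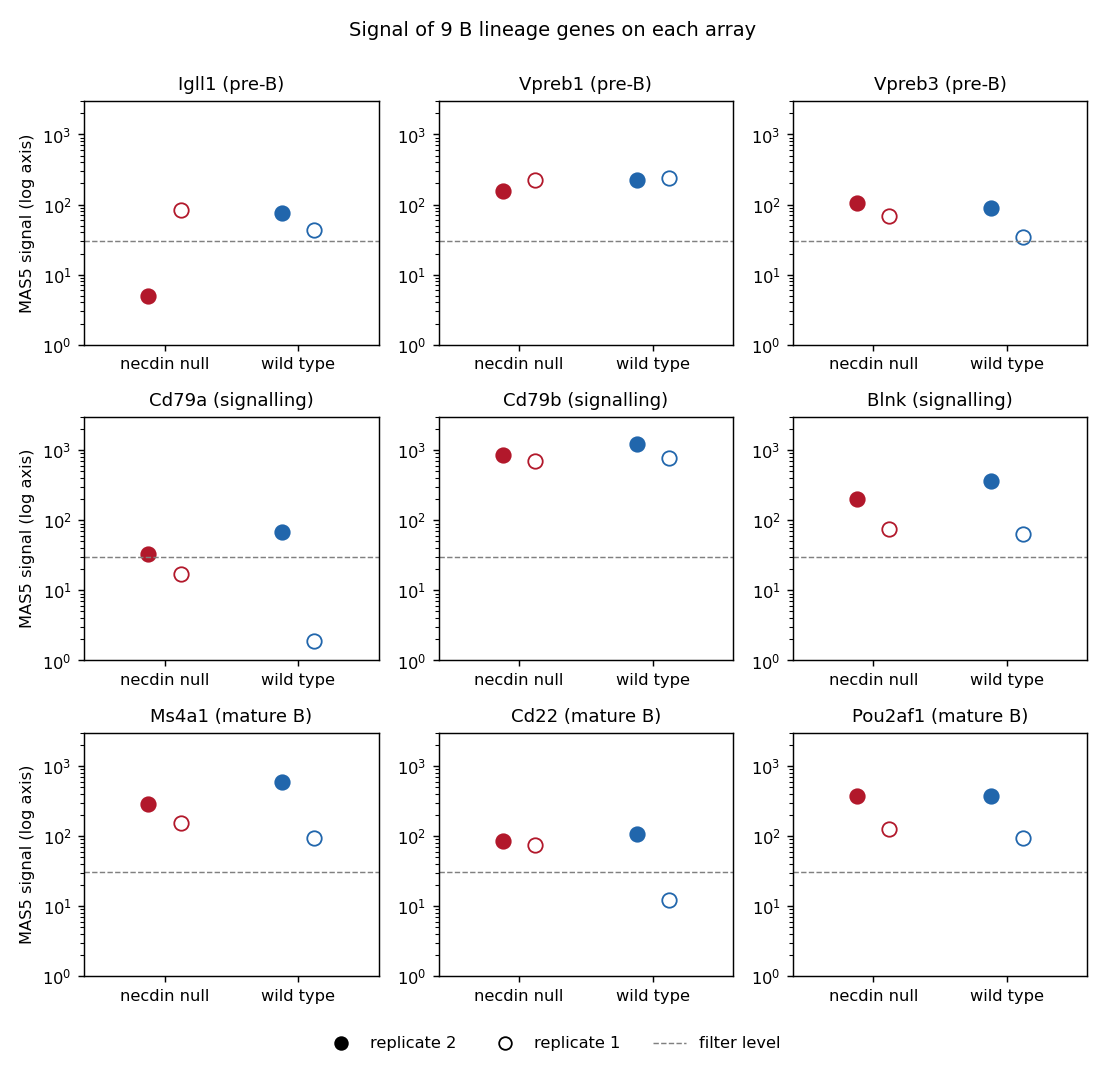
MAS5 signal (log axis) of the 9 genes on each array, necdin null left of wild type, with replicate 2 filled and replicate 1 open. The dashed line marks a signal of 30.3, the level of the filter, which was applied to the mean over the 4 arrays. In the row of mature B genes wild type replicate 2 is the brightest array and wild type replicate 1 the dimmest for all 3 genes, while Vpreb1 lies between 158 and 242 throughout.

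Among the pre-B genes, Vpreb1, which encodes a part of the surrogate light chain, had signals of 158 on replicate 2 and 227 on replicate 1 of necdin null cells, against 226 on replicate 2 and 242 on replicate 1 of wild type cells. The values are close, the groups overlap, and replicate 2 is the dimmer array in each. Igll1, which encodes its partner in the surrogate light chain, had 5.01 on replicate 2 and 84.5 on replicate 1 in necdin null cells, against 75.0 and 43.1 in wild type cells. Here necdin null replicate 2 alone is low. A second Igll1 probe set below the filter showed another order, with 60.8 and 6.18 in necdin null and 39.1 and 6.04 in wild type cells, so the 2 Igll1 probe sets disagreed on which array was low. Vpreb3, a relative of Vpreb1 that binds newly made mu heavy chains in pre-B cells, had 106 on replicate 2 and 68.9 on replicate 1 in necdin null cells, against 90.4 and 33.9 in wild type cells. Replicate 2 is the brighter array in both groups for this gene, whose window holds an octamer.

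Of the signalling genes, Cd79a, which encodes the alpha chain of the receptor's signalling pair, was near background. Its signals of 32.6 on replicate 2 and 17.1 on replicate 1 in necdin null cells, against 68.7 and 1.90 in wild type cells, had a mean log2 value of 4.57, below the filter at 5.09. It was the only one of the 9 genes below the filter and was not tested. Cd79b, which encodes the beta chain, had 853 on replicate 2 and 694 on replicate 1 in necdin null cells, against 1231 and 767 in wild type cells. Wild type replicate 2 is the brightest and the other 3 arrays are close together. Blnk, the adaptor that links SYK to downstream enzymes, had 202 on replicate 2 and 74.3 on replicate 1 in necdin null cells, against 363 and 64.3 in wild type cells. Both replicate 2 arrays lie above both replicate 1 arrays, and the genotypes overlap.

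Of the mature B genes, Ms4a1, which encodes the surface protein CD20, had 286 on replicate 2 and 154 on replicate 1 in necdin null cells, against 592 and 95.4 in wild type cells. Its second probe set, also above the filter, kept both replicate 2 arrays on top, with 137 and 55.5 in necdin null cells and 299 and 56.0 in wild type cells. Cd22, an inhibitory coreceptor that dampens B cell receptor signals, had 86.5 on replicate 2 and 73.6 on replicate 1 in necdin null cells, against 108 and 12.1 in wild type cells. Wild type replicate 1 stands apart below the other arrays, and a second Cd22 probe set lay below the filter at 1.18 to 29.7 on the 4 arrays with the order turned in wild type cells. Pou2af1, which encodes the coactivator OCA-B needed for germinal centres, had 372 on replicate 2 and 126 on replicate 1 in necdin null cells, against 373 and 93.2 in wild type cells. The replicate 2 signals of the genotypes nearly coincide, and both replicate 1 signals are lower.

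The comparison of genotypes asked whether loss of necdin changed these genes in irradiated LSK cells. No B lineage gene passed limma's test. Of the 8 genes above the filter, 0 had an adjusted p under 0.05 and 0 an unadjusted p under 0.05, beside 0.0% and 3.02% of the 12680 genes tested. The groups overlapped for all 8, whereas over all genes tested necdin null lay wholly above wild type for 12.8% and wholly below it for 17.7%. The largest differences, necdin null minus wild type on the log2(signal + 3.80) scale, were those of Igll1 at -1.12 (standard error 1.02) and Cd22 at 0.99 (standard error 0.87), each set by a single low array. The other log2 differences were -0.34 for Cd79b (standard error 0.28), -0.32 for Blnk (0.79), -0.30 for Vpreb1 (0.38), -0.18 for Ms4a1 (0.74), 0.21 for Pou2af1 (0.70) and 0.59 for Vpreb3 (0.62). The limma adjusted p was 0.999 for each of the 8, and 5 were lower and 3 higher in necdin null cells, with a median of -0.24 beside -0.03 over all genes tested. Leaving out wild type replicate 2 moved that median to 1.00, and leaving out wild type replicate 1 moved it to -0.72; leaving out necdin null replicate 1 moved it to 0.32. The plot of genotype differences shows how wide the errors are.

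**Figure D2:**
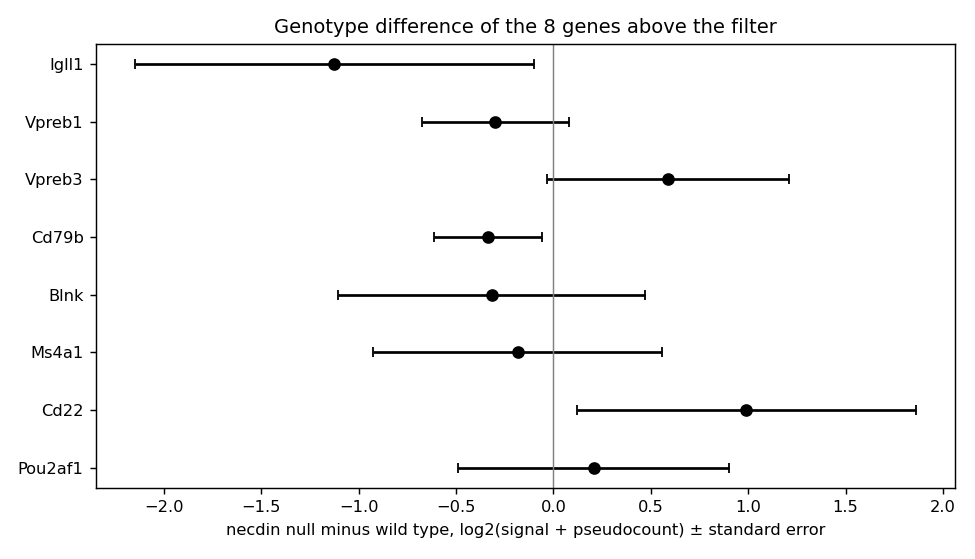
Necdin null minus wild type on the log2(signal + 3.80) scale for the 8 genes above the filter; points are differences of 2 arrays against 2 and bars are limma's standard errors. Points lie on both sides of 0, from -1.12 for Igll1 to 0.99 for Cd22, and none of them passed the test.

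Between the arrays of a group, Blnk and Pou2af1 differed in both genotypes, and Cd22 and Vpreb3 mainly in wild type cells. Ms4a1 differed more in wild type than in necdin null cells. Its second probe set, also above the filter, had log2 differences of 1.25 in necdin null and 2.34 in wild type cells. With 1 array on each side there is no test, so differences of at least 2-fold (1 on the log2 scale) were counted. In wild type cells 5 of the 8 genes were at least 2-fold brighter on replicate 2, against 7.23% of all genes tested: Cd22 (log2 difference 2.81), Ms4a1 (2.59), Blnk (2.43), Pou2af1 (1.96) and Vpreb3 (1.32). Cd79b had 0.68, Igll1 0.75 and Vpreb1 -0.10. In necdin null cells 2 of the 8 passed the same mark, against 4.13% of all genes tested: Pou2af1 (1.54) and Blnk (1.40). The same 2 genes were past it in both groups, where 1.2% of all genes tested were. Ms4a1 followed in necdin null cells at 0.88, Vpreb3 at 0.60, Cd79b at 0.30 and Cd22 at 0.22, while Vpreb1 had -0.52 and Igll1 -3.32. Igll1 was the 1 gene at least 2-fold dimmer on replicate 2 in necdin null cells, where 5.9% of all genes tested were, and 0 of the 8 were in wild type cells, where 3.92% were. Cd79a, below the filter, had 0.80 in necdin null and 3.67 in wild type cells.

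In size, the difference between replicates was greater in necdin null cells for Igll1 and Vpreb1 and greater in wild type cells for the other 6 genes above the filter, a comparison that was not tested. For all 3 mature B genes and Blnk, wild type replicate 2 was brightest and wild type replicate 1 dimmest of the 4 arrays. This order was that of 9.5% of all genes tested. Pou2af1 met it narrowly, with 372 against 373 on the replicate 2 arrays. The second probe sets of Ms4a1 and Cd22 did not show it. On that of Ms4a1 necdin null replicate 1 was dimmest, at 55.5 against 56.0 on wild type replicate 1, and on that of Cd22 wild type replicate 1 was brightest. The median difference between replicates was 0.88 for the mature B genes and -0.52 for the pre-B genes in necdin null cells. That pre-B median is the value of Vpreb1, with Igll1 at -3.32 on its main probe set and 2.70 on its second, below the filter. Its sign thus depends on the Igll1 probe set taken. In wild type cells the median difference was 2.59 for the mature B and 0.75 for the pre-B genes. Over all genes tested the medians were -0.03 in necdin null and 0.01 in wild type cells. Of the 2 signalling genes above the filter, Blnk was past the 2-fold mark in both groups and Cd79b in neither. The octamer was found both in a gene that differed strongly, Blnk, and in one that differed less, Vpreb3.

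**Figure D3:**
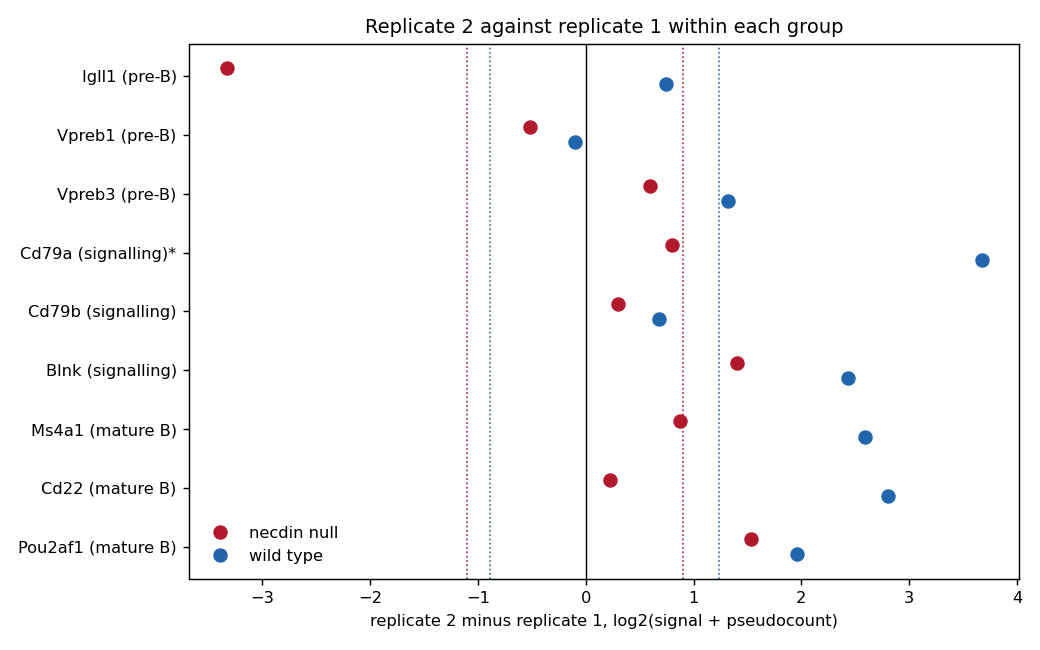
Replicate 2 minus replicate 1 on the log2(signal + 3.80) scale for each gene, necdin null above wild type in each row; the asterisk marks Cd79a, below the filter. Dotted lines of each group's colour mark the 5th and 95th percentiles over all genes tested, -1.10 and 0.90 for necdin null and -0.89 and 1.24 for wild type. The mature B genes, Blnk, Cd79a and the pre-B gene Vpreb3 lie right of the upper wild type line in wild type cells. Vpreb1 lies left of 0 in both groups.

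Other genes of the B cell programme were read from lists, none of which held a gene past limma's threshold. The median replicate difference of the immunoglobulin genes was 0.54 in necdin null cells and 3.76 in wild type cells, where it was the greatest of these lists. Ighm, the mu heavy chain, had 30444 on replicate 2 and 14224 on replicate 1 in necdin null cells, against 26215 and 4795 in wild type cells. Jchain, which joins secreted immunoglobulin into polymers, had 14151 and 3567 in necdin null cells, against 19751 and 755 in wild type cells. All 5 immunoglobulin genes named and above the filter were at least 2-fold brighter on replicate 2 in wild type cells and 2 of 5 in necdin null cells. Ighg3, an IgG heavy chain, had 3199 on wild type replicate 2 alone, with 39.6 and 34.7 in necdin null cells and 20.2 on wild type replicate 1. Iglv1, a lambda light chain segment, had its highest value elsewhere, 628 on necdin null replicate 1. Probe sets of immunoglobulin genes can share sequence, so their split between genes is uncertain.

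Among 13 transcription factors of the B lineage above the filter, 6 had the higher mean in necdin null cells and 7 in wild type cells. The median log2 difference was -0.09, with 0 called. The median replicate difference was 0.29 in necdin null and 0.18 in wild type cells, smaller than for the mature B genes. Ebf1, which starts the B cell programme, had 63.3 on replicate 2 and 31.0 on replicate 1 in necdin null cells, against 51.6 and 17.8 in wild type cells. Pax5, which locks B cell identity, was 5.11-fold brighter on replicate 2 in necdin null and 2.24-fold brighter in wild type cells. These 2 factors were thus dim, and brighter on replicate 2 in both groups. Tcf3, which encodes the E2A proteins, had 777 and 1148 in necdin null cells against 1070 and 1426 in wild type cells. Its log2 difference was -0.39 (standard error 0.26), a direction shared by 1 of the 2 Tcf3 probe sets that passed the filter. Foxo1, which drives recombinase and Il7r expression, had 807 and 663 against 951 and 1087 (-0.47, standard error 0.23).

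Of 11 genes of B cell receptor signalling above the filter, 5 had the higher mean in necdin null cells and 6 in wild type cells, with 0 called. Blk, a SRC family kinase of B cells, had 27.3 and 53.3 in necdin null cells against 132 and 65.6 in wild type cells, which differ by -1.20 on the log2 scale (standard error 0.62). It was dimmer on replicate 2 in necdin null cells. Its groups did not overlap. In this list necdin null lay wholly below wild type for 2 genes and wholly above it for 3. Over all genes tested these shares were 17.7% and 12.8%. Vav1, a guanine nucleotide exchange factor used in many blood cells, had 1862 and 2040 against 2809 and 2246 (-0.37, standard error 0.20), and the 2 Vav1 probe sets that passed the filter disagreed in direction. The list's median replicate difference was 0.01 in necdin null and 0.32 in wild type cells. Most of its members are used by myeloid cells as well. The limma adjusted p was 0.999 for each gene named here.

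Of 10 genes of the pro-B stage and of recombination, 4 had the higher mean in necdin null cells and 6 in wild type cells, with 0 called. Erg and Smarca4, broadly used regulators, had the smallest p, with log2 differences of -0.42 (standard error 0.22) and -0.34 (standard error 0.18). Dntt, the nucleotide-adding enzyme of recombining progenitors, had 29825 and 16372 in necdin null cells, against 25337 and 11744 in wild type cells. Il7r, the receptor for the cytokine that early B cells depend on, had 1047 and 168 against 926 and 254. Both were brighter on replicate 2 in both groups. Rag1, a subunit of the recombinase, had 68.2 and 80.6 in necdin null cells against 298 and 75.2 in wild type cells, so that wild type replicate 2 alone was high. The other B cell surface genes had medians between replicates of 0.52 in necdin null and 0.89 in wild type cells, over 13 genes. Among them Cd83, a surface activation marker, had 87.2 and 41.0 against 19.8 and 25.4 (log2 difference 1.28, standard error 0.67), and Cd40, the receptor for T cell help, had 73.5 and 2.18 against 121 and 63.4 (-2.09, standard error 1.09). Each had an adjusted p of 0.999 with limma. Prdm1, the regulator of plasma cell differentiation, had 48.2 and 32.3 in necdin null cells against 63.5 and 89.5 in wild type cells, with a log2 difference of -0.87 (standard error 0.58) and the same limma adjusted p of 0.999.

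The B lineage genes were not alone in following the replicate number. In bulk RNA, fewer cells of a type and less RNA per cell cannot be told apart. Among markers of other cell types, 8 of 8 neutrophil genes above the filter were brighter on replicate 2 in both groups. Over all genes tested 27.3% were. The median log2 differences of the neutrophil genes were 1.30 in necdin null and 1.84 in wild type cells. Their summed signal was 129900 on replicate 2 and 49479 on replicate 1 of necdin null cells, against 86629 and 31101 in wild type cells. Monocyte and macrophage markers had medians of 0.70 and 1.32 over 5 genes. Of these, 4 were brighter on replicate 2 in necdin null cells and 5 in wild type cells. Csf1r, the receptor for macrophage colony-stimulating factor, had 2104 and 1272 in necdin null cells against 3498 and 834 in wild type cells. Adgre1 went the other way in necdin null cells, with 146 and 170 there against 320 and 80.8 in wild type cells. Plasma cell markers had medians of 0.53 and 2.34 over 5 genes, 1 of which, Jchain, is also an immunoglobulin list gene.

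Markers of T cells were dim or mixed: Cd3d, Cd3e, Cd3g, Cd4 and Cd8b1 were below the filter on the mean over the arrays, and the summed signal of the 7 named T cell genes was 369 and 390 in necdin null cells against 360 and 396 in wild type cells. That sum is largely Thy1, which stem cells also express, at 184 and 329 in necdin null cells against 188 and 300 in wild type cells. Cd8a, the other T cell gene above the filter, was brighter on replicate 2, with 51.0 and 26.3 in necdin null cells against 64.0 and 18.7 in wild type cells. Below the filter Cd3d, Cd3g and Cd4 were brighter on replicate 2 in both groups, but Cd3e and Cd8b1 only in necdin null cells. Cd3e had 37.8 and 11.8 in necdin null cells against 12.8 and 14.8 in wild type cells. Cd8b1 had 32.0 and 2.09 in necdin null cells against 4.54 and 18.3 in wild type cells. Stem and progenitor markers had medians of -0.19 in necdin null and -0.50 in wild type cells over 7 genes, of which 3 were brighter on replicate 2 in necdin null cells and 1 in wild type cells. Flt3, a receptor of lymphoid-primed progenitors, was brighter on replicate 2 in both groups, by 0.40 in necdin null and 0.70 in wild type cells on the log2 scale. Hlf, a transcription factor of stem cells and the gene of this list with the greatest difference, had 2674 on replicate 2 and 4997 on replicate 1 in necdin null cells, against 2637 and 6110 in wild type cells. Plasmacytoid dendritic cell markers had 0.05 and 0.44 over 6 genes; Siglech, a defining gene of that type, had 43.5 and 55.3 against 47.5 and 60.2. Ccr9, a chemokine receptor of that type, had 208 and 103 in necdin null cells against 636 and 243 in wild type cells. Its log2 difference was -1.40 (standard error 0.53, limma adjusted p = 0.999). The summed signal of the 6 named B cell markers, 4 of which are among the 9 genes, was 1378 and 981 in necdin null cells against 2105 and 919 in wild type cells. Most of that sum is Cd79b, at 853 and 694 in necdin null cells against 1231 and 767 in wild type cells. The 6 pre-B markers were 3 of the 9 genes with Rag1, Rag2 and Dntt, which the pro-B and recombination list also holds. Their medians were 0.18 in necdin null and 1.21 in wild type cells, and 3 and 5 of them, in that order, were brighter on replicate 2. In wild type cells Rag1 had 1.93, Rag2 1.72 and Dntt 1.11, against 1.32 for Vpreb3, 0.75 for Igll1 and -0.10 for Vpreb1. The part of these cell types in the differences of the B lineage genes was not tested.

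**Figure D4:**
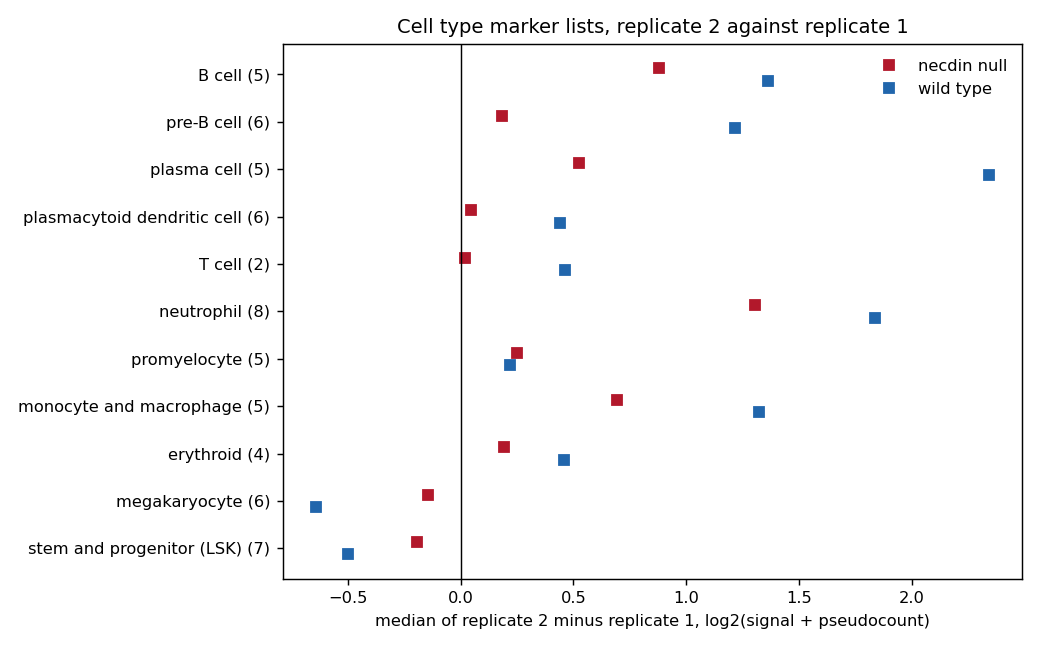
Median of replicate 2 minus replicate 1 on the log2(signal + 3.80) scale for each marker list, necdin null above wild type in each row, with the number of genes above the filter in brackets. All lists but 2 lie right of 0 in both groups, and the stem and progenitor and megakaryocyte lists lie left of it. The pre-B list, of which Rag1, Rag2 and Dntt are part, lies at 0.18 in necdin null and 1.21 in wild type cells.

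The 5 genes outside the set whose 4 values lay nearest to the mean profile of the 8 genes above the filter were Kcng1, Sox7, Amz1, Slc35d2 and Zbtb7a. Likeness was the Euclidean distance between log2 deviations from each gene's own mean over the 4 arrays, and it was 0.09 for Kcng1, 0.10 for Sox7, 0.11 for Amz1, 0.12 for Slc35d2 and 0.15 for Zbtb7a among 12680 genes. The mean profile was 0.04 on replicate 2 and -0.10 on replicate 1 of necdin null cells, against 0.81 and -0.75 in wild type cells. The 8 genes themselves lay farther from it, between 0.69 for Cd79b and 2.73 for Igll1, so the profile averages unlike members. None of the 5 belongs to a B cell list used here.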

How the data were processed

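Gene expression was measured on 4 Affymetrix arrays, 2 of necdin null and 2 of wild type LSK cells; groups and replicate numbers came from the labels. Total RNA was extracted with a column kit, per the labels' protocols. The values deposited by the authors are linear intensity, made with MAS5 per the submitters' processing notes, which name no version; detection calls were not used. Their mean without the outer 2% at each end was 500.004 on all 4 arrays.

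Of 45101 probe sets, 34958 had 1 gene symbol in the platform annotation, 932 several and 9211 none; those with 1 were named. Of these, 34754 had a gene identifier in the RefSeq table (GRCm38.p6), with 0 symbols changed. Some listed genes are not reported here.

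Signals were put on the log2(signal + 3.80) scale, the pseudocount being the 10th percentile of all values, so that a log2 difference understates the change of dim genes. Each gene was taken by its probe set of highest mean, and the 12680 genes that reached the 40th percentile of all probe sets were tested with limma 3.58.1 in R 4.3.3 (intensity trend, two-sided, Benjamini-Hochberg over all genes, threshold 0.05), without replicate block. The code was tested on simulated data. An exact permutation test of 2 against 2 cannot go below 0.333.

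The members and lists were chosen with earlier results of these data known. Besides the members, each list names its genes past the threshold or, with none, the 2 of smallest p. Ighm, Ebf1, Pax5, Dntt, Il7r, Csf1r, Adgre1, Flt3, Hlf and Siglech were named after their values were seen. Marker genes of other cell types are given only where they bear on the members. Alternatives changed pseudocount, filter, normalization, trend, probe sets and block, or left out an array. Tyrosine motifs of the receptor tails were not analysed here.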

Additional observations from a re-analysis of the deposited data

Results flagged for a closer look

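Igll1 differed between the replicates in opposite ways in the 2 groups. Replicate 2 minus replicate 1 on its brighter probe set was -3.32 on the log2(signal + 3.80) scale in necdin null cells and 0.75 in wild type cells. The difference between the groups was not tested, since each group gives 1 such value. The second Igll1 probe set, below the filter, had 2.70 in necdin null and 2.12 in wild type cells.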

How the results depend on the processing

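None of the 8 tested genes passed limma's threshold under any alternative that tested it; the smallest adjusted p was 0.42, for Igll1. Their log2 differences kept their sign under changes of pseudocount, filter, normalization, trend, probe sets and block, except Igll1 without _s_at, _x_at and _a_at probe sets (0.31) and Cd22 as the mean of its probe sets (-0.11), both then below the filter. Leaving out 1 array gave ranges of -0.68 to 0.0043 for Cd79b, -1.48 to 1.11 for Ms4a1, -1.53 to 0.90 for Blnk, -2.79 to 0.54 for Igll1, -0.56 to -0.04 for Vpreb1, -0.0735 to 1.25 for Vpreb3, -0.41 to 2.39 for Cd22, -0.77 to 1.19 for Pou2af1, -1.39 to 2.28 for the untested Cd79a and -0.72 to 1.00 for the median of the 8. Over all genes, 0 were called (383 at an unadjusted limma p under 0.05), and leaving out 1 array gave 0 to 4: 4 without wild type replicate 2, 3 when necdin null replicate 1 was dropped, 2 when wild type replicate 1 was and 0 when necdin null replicate 2 was, the lone array being assumed to vary like the others. With the replicate block 3 were called, none a member: Ddit4, Gas2l3 and Tcl1b3. The numbers are not known to pair arrays; with only 2 pairs, deviations of same-numbered arrays correlated at 0.11 across genes. Without wild type replicate 1 the 2 called genes were Frmd4b and Ighg3. Genes in these counts are named after their values were seen. Members at least 2-fold brighter on replicate 2 numbered 2 to 3 in necdin null and 3 to 6 in wild type cells under alternatives chosen after seeing the data; the 3 came with the filter at the 60th percentile, which left 5 members. These counts have no value with an array left out. Centring each array on its median put the all-gene difference between replicates at a median of -0.21 in wild type cells, with the same counts of 2 and 5 members. The cause of these changes was not tested. Genes near the filter, such as Cd22 and Igll1, are limited by signal over background.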
